A study of Mus musculus with 39 samples.

Results

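The levels of 10 genes that mark neutrophils (S100a8, S100a9, Ngp, Camp, Ltf, Lcn2, Retnlg, Mmp8, Mmp9 and Cxcr2) were examined in RNA from cells pulled out of mouse cerebrum with magnetic beads against CD11b, a surface integrin shared by microglia and other myeloid cells. The genes were chosen by symbol, and all 10 were found among the 46333 genes of the female count table and the 54532 genes of the male count table. The cells came from wild-type (WT) mice and from 5XFAD mice, a model of Alzheimer's disease whose transgenes are driven by a neuronal promoter. From 4 months of age the mice lived in normoxia (NX, 21% O2) or in chronic intermittent hypoxia (CIH), in which the labels give O2 cycling between 21% and 6.5% at 90 s intervals for 8 hours per day, while the study's methods state a different low level and daily duration. Females were collected at 10 months and males at 8 months of age. The 8 groups were F WT NX with 4 libraries and F WT CIH, F 5XFAD NX, F 5XFAD CIH, M WT NX, M WT CIH, M 5XFAD NX and M 5XFAD CIH with 5 libraries each, 39 in all. The brains had been perfused and papain-digested and the myelin removed before the CD11b selection, and the labels call the cells microglia. Nothing in the labels says that each library came from a separate animal, so the p-values measure the spread between libraries.

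Neutrophils are short-lived granulocytes made in the bone marrow. As they mature they fill successive types of granule with antimicrobial proteins and proteases, and the messenger RNAs of the granule proteins are made in waves during that maturation, the primary granule proteins first and the specific and gelatinase granule proteins later. C/EBP-epsilon is a transcription factor needed for the specific granule genes. In the brain, neutrophils are few in the healthy parenchyma and are found mainly in blood vessels, meninges and adjoining skull marrow, and since they also carry CD11b on their surface, the bead selection does not separate them from microglia.

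The sequences upstream of the genes were examined because several of the 10 genes varied together, as shown further on. RefSeq promoter sequences (GRCm38.p6, 250 bases before to 50 bases after the annotated start) matched 9 of the 10 genes, the exception being Mmp9. The 8-base core TTGCNNAA that C/EBP factors can bind, searched on both strands, was present in 6 of these 9 promoters (Lcn2, Ltf, Mmp8, Ngp, Retnlg and S100a9) and in 10.8% of the 32851 promoters in the table. The letters GAGGAA, found in many sites of the ETS factor PU.1, were present on either strand in 5 of the 9 (Cxcr2, Lcn2, Ltf, Mmp8 and S100a8) against 28.3% of all promoters, and TATAAA on the strand of the gene in 2 of the 9 (S100a8 and S100a9) against 8.32%. No match of one motif overlapped a match of another in these windows. The 250 bases before the annotated start are printed 5′ to 3′ on the strand of the gene for 4 genes with the TTGCNNAA core, one of each kind of product, and for Cxcr2, the gene that followed the others least, with the core in capitals.
S100a9 (chr3:90695722-90695971, minus strand): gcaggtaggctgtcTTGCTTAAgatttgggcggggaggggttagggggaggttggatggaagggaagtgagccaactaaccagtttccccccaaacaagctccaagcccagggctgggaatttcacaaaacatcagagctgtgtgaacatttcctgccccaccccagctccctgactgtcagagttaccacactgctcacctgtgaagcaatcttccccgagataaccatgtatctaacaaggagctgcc
Ltf (chr9:111019042-111019291, plus strand): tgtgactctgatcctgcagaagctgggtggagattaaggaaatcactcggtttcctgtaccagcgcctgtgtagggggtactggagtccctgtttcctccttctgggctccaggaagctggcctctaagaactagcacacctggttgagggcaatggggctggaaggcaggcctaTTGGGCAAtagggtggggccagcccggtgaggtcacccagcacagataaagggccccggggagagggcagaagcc
Mmp8 (chr9:7558179-7558428, plus strand): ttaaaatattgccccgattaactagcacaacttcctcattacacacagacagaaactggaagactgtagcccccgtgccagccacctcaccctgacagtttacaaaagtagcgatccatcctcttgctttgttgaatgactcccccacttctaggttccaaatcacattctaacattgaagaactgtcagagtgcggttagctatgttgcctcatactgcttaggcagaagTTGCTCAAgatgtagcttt
Retnlg (chr16:48872358-48872607, plus strand): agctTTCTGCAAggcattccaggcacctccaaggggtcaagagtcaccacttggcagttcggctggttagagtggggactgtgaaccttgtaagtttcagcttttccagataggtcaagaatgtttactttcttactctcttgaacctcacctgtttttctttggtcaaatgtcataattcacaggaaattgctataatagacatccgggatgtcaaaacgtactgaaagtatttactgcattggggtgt
Cxcr2 (chr1:74153744-74153993, plus strand): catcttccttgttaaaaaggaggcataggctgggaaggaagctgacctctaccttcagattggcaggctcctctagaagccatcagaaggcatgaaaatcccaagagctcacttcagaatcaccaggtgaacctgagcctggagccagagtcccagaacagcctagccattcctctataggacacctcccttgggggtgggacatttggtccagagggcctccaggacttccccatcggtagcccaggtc
A match to these letters is a description of the sequence and not a bound site.

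The female libraries held 14731683 to 25906121 counts and the male libraries 13457293 to 23095627, so that 1 CPM (a count scaled to the library total) stood for 13 counts in the smallest library. All CPM given here were scaled with the TMM factors of edgeR over the libraries of one sex. All 10 genes passed the filter on low counts (CPM above 1 in at least 3 of the libraries compared) in every comparison. Microglial markers dominated the isolates. The 7 microglial genes examined summed to 20898.9 to 33666 CPM in the male libraries, where the 10 neutrophil genes summed to 64.4 to 1440 CPM. In the female libraries the sums were 21041.8 to 30766.4 CPM and 12.3 to 299 CPM. One library went against its label. Cst7, a cystatin gene that is high in microglia around amyloid plaques, was at 16.2 CPM in the library labelled F 5XFAD NX 4, against 1152 to 2459 CPM in the other female 5XFAD libraries and 7.74 to 17.3 CPM in the female WT libraries, and the tests, the spread and the similarity ranking that use it are given with and without it.

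Compared per gene length, in FPKM, the 10 genes kept nearly the same order in both sexes, but the gene lengths used differed between the female and male tables. Lcn2 at 7.94 CPM was 9.77 FPKM in F WT NX 1, while at 17.9 CPM it was 6.81 FPKM in M WT NX 1. The orders in the 2 sexes are therefore not like for like. S100a9 was the most abundant, with a median of 35.6 FPKM over the 19 female libraries (7.13 to 162) and 120 FPKM over the 20 male libraries (36.2 to 805). S100a8 came next with medians of 28.3 FPKM in females and 68.8 FPKM in males. Ngp followed at 7.72 FPKM in females and 27.2 FPKM in males, below S100a8 in every library of both sexes. Retnlg and Camp were close to each other in females, where Retnlg was the higher in 10 of 19 libraries with medians of 4.76 and 4.39 FPKM. In males Retnlg (17.8 FPKM) was above Camp (9.91 FPKM) in 17 of 20 libraries. The same uncertainty held for Lcn2 and Ltf in males, at 6.54 and 4.65 FPKM, where Lcn2 was the higher in 9 of 20 libraries only. This order depends on the gene lengths used, which differed between the tables. At the foot of the order were Mmp9 (1.54 FPKM in females and 2.52 FPKM in males), Mmp8 (0.54 and 1.49 FPKM) and Cxcr2 (0.361 and 0.832 FPKM). The female and male tables were deposited separately and the mice differed in age, so the higher values of the males cannot be told apart from differences between the tables.

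With all libraries kept, the largest median difference among the 8 comparisons was between male WT mice in normoxia and in CIH. This order rested on single libraries. The median log2FC of the 10 genes was −1.56 in this comparison and −1.16 without M WT NX 5. That of genotype in normoxia was −1.70 in females without F 5XFAD NX 4 and −1.69 in males without M 5XFAD NX 2. The 10 genes together reached 268 to 1360 CPM in the M WT NX libraries (median 473) and 127 to 360 CPM in the M WT CIH libraries (median 149). All 10 genes had a lower fitted level after CIH, as 51.2% of all genes did, with a median log2 fold change (log2FC) of −1.56 against −0.01 over all genes, and 7 of the 10 fell at an FDR below 0.05 with an absolute log2FC above 1 (edgeR quasi-likelihood test), where 0.881% of the 14983 genes tested fell by the same rule. In bulk isolates of this kind, fewer neutrophils and less RNA per neutrophil cannot be told apart. For each of the 10 genes the libraries of the M WT NX and M WT CIH groups overlapped. The calls rested on the spread estimated from these 10 libraries: with all 4 male groups in 1 fit, none of the 7 passed, as 0 of all 14983 genes did, with adjusted p from 0.0745 for S100a9 to 0.137 for Ltf at nearly the same log2FC, and all 7 had an unadjusted p below 0.05, as 29.6% of all genes did. Without the library M WT NX 5, which had the highest value of its group for all 10 genes, 4 passed (S100a8, S100a9, Camp and Lcn2), where 1.95% of all genes were called in either direction.

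**Figure D1:**
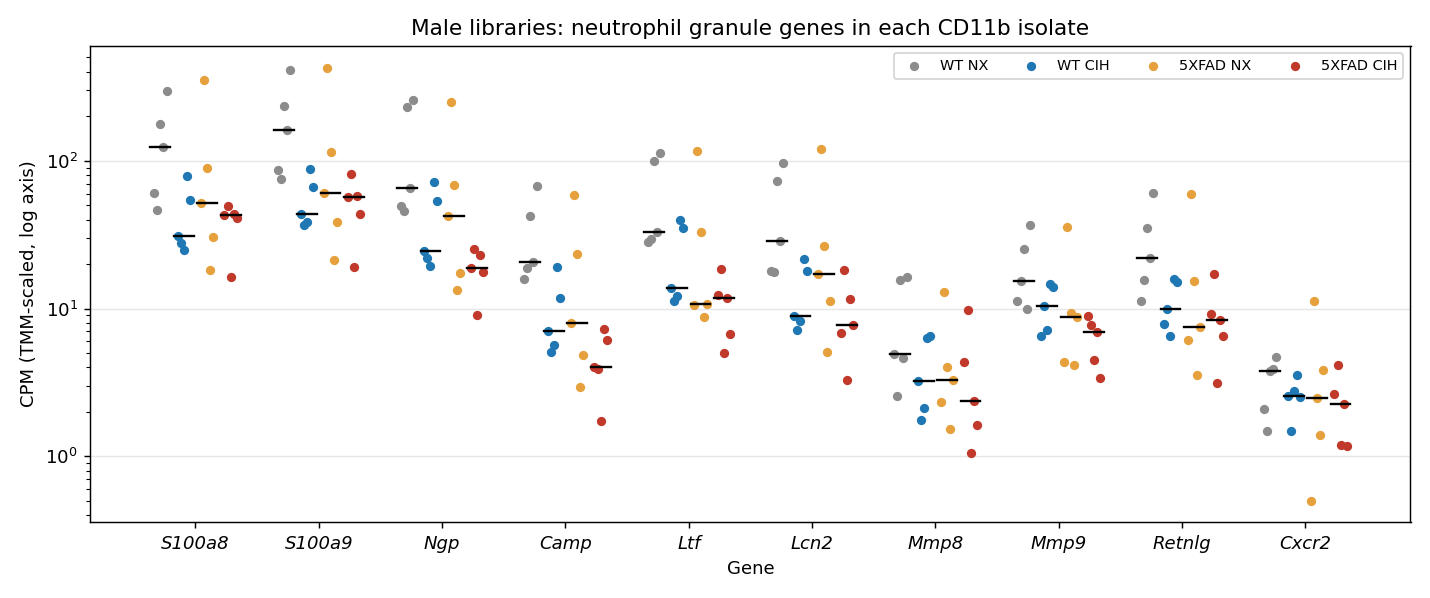
CPM (TMM-scaled, log axis) of the 10 genes in each of the 20 male libraries, with 1 point per library, colours for the 4 groups and a black bar at each group's median. For all 10 genes the highest M 5XFAD NX point is library 2, and the M WT NX medians lie above the M WT CIH medians for all 10.

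S100a8 and S100a9 encode the paired calcium-binding alarmins that form calprotectin, a plentiful protein complex of the neutrophil cytoplasm. They lie on chromosome 3, S100a8 at chr3:90668978-90670035 on the plus strand and S100a9 at chr3:90692632-90695721 on the minus strand, with 22596 bases between them. In replicate order, S100a8 was at 60.6, 46.6, 177, 124 and 297 CPM in M WT NX and at 31.2, 27.9, 24.8, 79.2 and 54.4 CPM in M WT CIH. Libraries 4 and 5 of M WT CIH exceeded the lowest NX library, and the other 3 lay below all of them. S100a8 fell with a log2FC of −1.69 (SE 0.433, edgeR adjusted p = 0.00897). S100a9 was at 86.8, 75, 236, 160 and 408 CPM in M WT NX and 43.9, 36.6, 38.4, 88.1 and 66.6 CPM in M WT CIH, and fell with a log2FC of −1.81 (SE 0.389, edgeR adjusted p = 0.00311). The same library, M WT CIH 4, was the only CIH library above any NX library for S100a9. In the 5XFAD males S100a8 was at 52, 350, 89.9, 18.2 and 30.6 CPM after NX and 42.9, 49.2, 16.3, 43.6 and 41.1 CPM after CIH. For S100a9 the corresponding values were 60.6, 427, 115, 21.4 and 38.7 CPM and 56.8, 81.6, 19.1, 58.2 and 43.4 CPM. One M 5XFAD NX library, number 2, was far above the other 4 for both genes, while M 5XFAD CIH 3 was the lowest of its group.

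In females both alarmin genes were lower in level. S100a8 was at 47.5, 12.8, 7.99 and 8.71 CPM in F WT NX and 16.1, 20.5, 13.7, 10.7 and 14.3 CPM in F WT CIH. It was at 5.68, 1.93, 11.8, 42.2 and 6.93 CPM in F 5XFAD NX and 6.23, 15.5, 6.08, 7.41 and 8.67 CPM in F 5XFAD CIH. S100a9 was at 80.6, 22.3, 18.4 and 14.7 CPM in F WT NX and 26.2, 35.7, 21.9, 17.8 and 19.2 CPM in F WT CIH. Library 1 of F WT NX and library 4 of F 5XFAD NX stood above the rest of their groups for both genes. In the 5XFAD females S100a9 was at 9.79, 4.26, 15.4, 71.6 and 9.46 CPM after NX and 6.03, 22.7, 11.6, 9.02 and 17 CPM after CIH. The ratio of S100a9 to S100a8 counts stayed between 0.969 and 2.30 in the female libraries and between 1.06 and 1.66 in the male libraries, while the summed CPM of the 10 genes varied 24.4-fold and 22.4-fold over the same libraries.

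Ngp, Camp, Ltf and Lcn2 encode proteins of the specific granules. Ngp (neutrophilic granule protein, chr9:110419747-110423012) and Camp (the cathelicidin antimicrobial peptide, chr9:109847379-109849617) are related genes of the cystatin-fold family and lie 570129 bases apart on chromosome 9. Ngp was at 49.2, 45.6, 231, 65.4 and 259 CPM in M WT NX and 24.3, 22, 19.5, 71.8 and 53.5 CPM in M WT CIH, and fell with a log2FC of −1.76 (SE 0.498, edgeR adjusted p = 0.0156). Camp was at 15.8, 18.7, 42.2, 20.6 and 67.8 CPM in M WT NX and 7.01, 5.08, 5.65, 19 and 11.7 CPM in M WT CIH, and fell by the same size with a log2FC of −1.76 (SE 0.415, edgeR adjusted p = 0.00554). Both genes had their highest CIH value in M WT CIH 4, above the lowest NX library. In 5XFAD males Ngp was at 42.2, 250, 68.7, 13.4 and 17.5 CPM after NX and 18.8, 25.3, 9.0, 23 and 17.6 CPM after CIH. Camp was at 8.05, 58.5, 23.4, 2.93 and 4.86 CPM and 4.02, 3.89, 1.72, 7.26 and 6.1 CPM in the same groups. The highest M 5XFAD CIH library was below the third-highest M 5XFAD NX library for each gene, yet the groups overlapped.

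Ltf encodes lactoferrin, which binds iron, and Lcn2 encodes lipocalin 2, which captures bacterial siderophores. Lcn2 is also made by reactive astrocytes and other cells, so it is less particular to neutrophils than Ngp or Ltf. Ltf (chr9:111019271-111042767) was at 28.2, 29.5, 99.5, 33.1 and 112 CPM in M WT NX and 13.8, 11.3, 12.1, 40 and 35 CPM in M WT CIH, and fell with a log2FC of −1.43 (SE 0.444, edgeR adjusted p = 0.0251). Lcn2 (chr2:32384633-32388252) was at 17.9, 17.6, 72.9, 28.8 and 96.7 CPM in M WT NX and 8.95, 7.2, 8.28, 21.6 and 17.9 CPM in M WT CIH, and had the largest fall of the 10 genes with a log2FC of −1.87 (SE 0.456, edgeR adjusted p = 0.00673). For both genes the 2 highest CIH libraries, numbers 4 and 5, reached or passed the lowest NX libraries. In 5XFAD males Ltf was at 10.6, 116, 33.1, 8.72 and 10.7 CPM after NX and 12.4, 18.4, 5.02, 11.8 and 6.68 CPM after CIH. Lcn2 was at 17.2, 119, 26.7, 5.13 and 11.3 CPM after NX and 6.87, 18.1, 3.3, 11.7 and 7.78 CPM after CIH. As for the alarmins, M 5XFAD NX 2 held the top value of both genes.

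The female levels of the specific granule genes were led by the same libraries, though unequally. Ngp was at 18, 14.7, 5.28 and 7.32 CPM in F WT NX, 17.6, 27, 12.8, 8.59 and 12.7 CPM in F WT CIH, 5.3, 1.67, 15.9, 63.6 and 4.58 CPM in F 5XFAD NX and 2.95, 17.5, 6.92, 8.62 and 9.0 CPM in F 5XFAD CIH. Camp was at 5.37, 5.62, 2.41 and 2.5 CPM, 4.61, 9.09, 4.32, 1.85 and 4.18 CPM, 1.51, 0.333, 3.59, 19.4 and 1.48 CPM and 0.835, 5.53, 1.79, 2.42 and 1.77 CPM in these groups in turn. Library F WT NX 1 was within the range of the other WT females for Ngp and Camp, while F 5XFAD NX 4 was above every other female library for both. Ltf was at 44.8, 11.7, 4.05 and 6.27 CPM in F WT NX, 11.6, 16.2, 10, 5.71 and 10.1 CPM in F WT CIH, 4.81, 0.866, 9.43, 44.6 and 3.28 CPM in F 5XFAD NX and 2.12, 14.6, 5.37, 7.61 and 8.35 CPM in F 5XFAD CIH. Lcn2 was at 7.94, 4.0, 1.43 and 2.22 CPM, 5.58, 7.37, 4.98, 1.7 and 3.46 CPM, 1.73, 0.333, 3.92, 16.8 and 2.35 CPM and 1.86, 4.86, 2.74, 2.96 and 1.77 CPM in the same order. For Ltf, F WT NX 1 and F 5XFAD NX 4 were nearly equal and both far above the rest.

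Mmp8 encodes neutrophil collagenase, Mmp9 encodes gelatinase B, and Retnlg encodes a resistin-like secreted protein of bone marrow and neutrophils. Mmp9 is also made by other myeloid cells. Retnlg (chr16:48872621-48874496) was at 11.3, 15.6, 35.1, 21.9 and 60.7 CPM in M WT NX and 7.82, 9.96, 6.55, 15.9 and 15.2 CPM in M WT CIH, and fell with a log2FC of −1.38 (SE 0.377, edgeR adjusted p = 0.0134). Mmp9 (chr2:164940780-164955850) was at 11.3, 15.4, 25.3, 9.93 and 37 CPM in M WT NX and 6.51, 10.4, 7.12, 14.6 and 14 CPM in M WT CIH. Its log2FC of −0.91 (SE 0.328, edgeR adjusted p = 0.04995) was short of the limit of 1. Mmp8 (chr9:7558456-7568485) was at 4.92, 2.56, 15.5, 4.63 and 16.4 CPM in M WT NX and 3.25, 1.77, 2.12, 6.36 and 6.49 CPM in M WT CIH, with a log2FC of −1.14 (SE 0.488, edgeR adjusted p = 0.0944) that did not pass. The highest Mmp8 values, in M WT NX 3 and M WT NX 5, were above all M WT CIH libraries and the other 3 NX values lay among them. In 5XFAD males Retnlg was at 6.1, 59.2, 15.4, 3.53 and 7.53 CPM after NX and 9.19, 17.3, 3.15, 8.36 and 6.55 CPM after CIH. Mmp9 was at 4.34, 35.4, 9.29, 4.13 and 8.8 CPM and 8.88, 7.72, 4.5, 7.0 and 3.37 CPM, and Mmp8 at 2.33, 13, 4.03, 1.53 and 3.31 CPM and 4.32, 9.84, 1.05, 2.37 and 1.62 CPM, in those groups. M 5XFAD NX 2 was again the highest library of its group for all 3 genes, and for Mmp8 and Retnlg M 5XFAD CIH 2 was the highest of the CIH libraries.

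Among females Retnlg was at 6.03, 4.0, 2.05 and 1.55 CPM in F WT NX, 4.73, 4.87, 4.5, 3.04 and 3.35 CPM in F WT CIH, 1.62, 0.866, 2.66, 16.8 and 1.67 CPM in F 5XFAD NX and 1.48, 3.0, 1.85, 2.29 and 3.22 CPM in F 5XFAD CIH. Mmp9 was at 27.2, 4.98, 8.2 and 7.26 CPM, 5.24, 7.07, 5.1, 6.53 and 5.98 CPM, 2.43, 1.27, 4.05, 13.7 and 3.9 CPM and 3.08, 4.29, 3.76, 3.57 and 5.45 CPM in these groups in turn. Mmp9 had the lowest biological coefficient of variation of the 10 genes in both sexes with all libraries (Retnlg in females without F 5XFAD NX 4), and its F 5XFAD CIH values overlapped the F WT CIH values through a single library, F 5XFAD CIH 5. Mmp8 was at 13.8, 1.51, 1.02 and 0.887 CPM in F WT NX, 1.25, 1.96, 2.1, 1.13 and 2.89 CPM in F WT CIH, 1.03, 0.20, 1.4, 7.33 and 0.742 CPM in F 5XFAD NX and 0.578, 1.86, 1.25, 0.943 and 1.51 CPM in F 5XFAD CIH. The F WT NX 1 value of Mmp8 was the highest of all female libraries.

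Cxcr2 (chr1:74153989-74161246) encodes the receptor for CXC chemokines that draws mature neutrophils out of the marrow and into tissue, and it is the only membrane receptor among the 10. It was the exception in males. Cxcr2 was at 2.08, 1.49, 3.79, 3.89 and 4.71 CPM in M WT NX and 2.57, 1.48, 2.76, 3.58 and 2.53 CPM in M WT CIH, and the groups overlapped over most of their range (edgeR adjusted p = 0.554). It was at 0.503, 11.2, 2.48, 1.4 and 3.87 CPM in M 5XFAD NX and 2.63, 4.18, 1.2, 2.26 and 1.17 CPM in M 5XFAD CIH. The lowest male value, in M 5XFAD NX 1, came from a library whose Ngp value was near the middle of the male range. In females Cxcr2 was at 17.8, 0.753, 0.973 and 1.61 CPM in F WT NX, 1.76, 1.66, 1.2, 1.39 and 1.08 CPM in F WT CIH, 0.433, 0.533, 1.13, 3.2 and 1.05 CPM in F 5XFAD NX and 0.835, 1.65, 0.596, 0.673 and 1.05 CPM in F 5XFAD CIH. Library F WT NX 1 stood alone, with 0.984 Cxcr2 counts for each Ngp count, against at most 0.32 in any other female library, while F 5XFAD NX 4 had the lowest female ratio at 0.0504. These 2 libraries, with summed CPM of the 10 genes of 269 and 299, differed 19.5-fold in the ratio of Cxcr2 to Ngp.

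**Figure D2:**
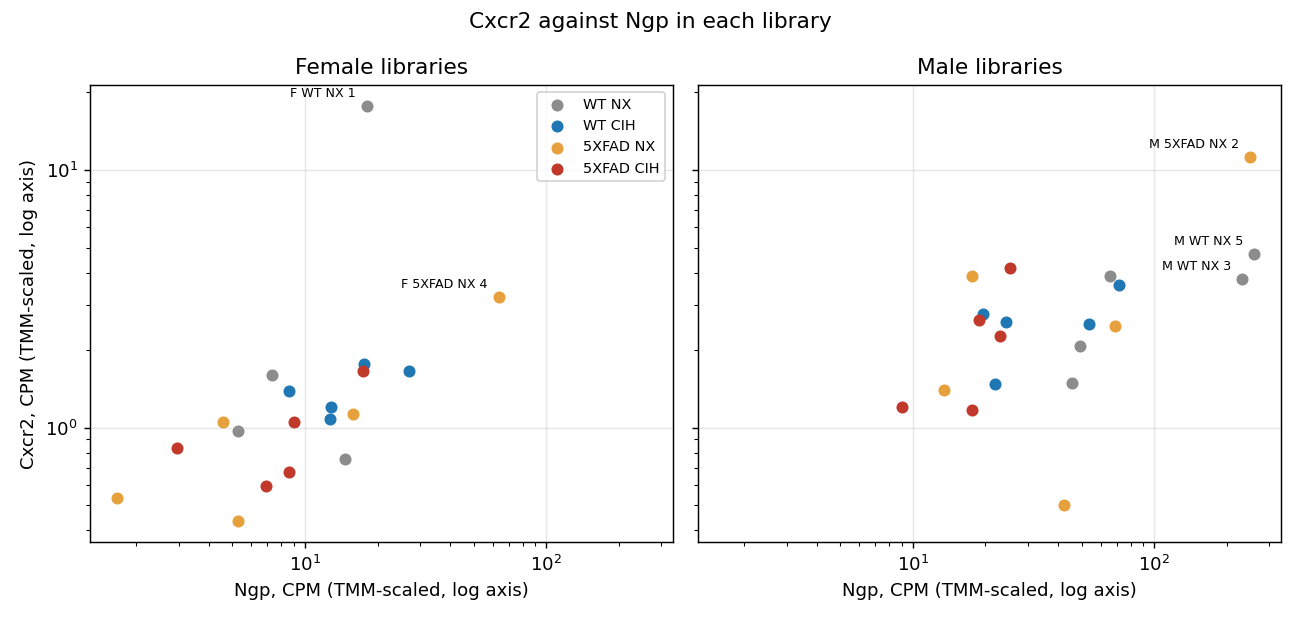
Cxcr2 against Ngp in each library, both in CPM (TMM-scaled) on log axes, for the 19 female (left) and 20 male (right) libraries, with 1 point per library. F WT NX 1 lies above all other female libraries in Cxcr2 (17.8 CPM) at an Ngp level of 18 CPM, and F 5XFAD NX 4 has the highest female Ngp level (63.6 CPM) with 3.2 CPM of Cxcr2.

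The effect of CIH in 5XFAD males was examined next. All 10 genes had a lower fitted level in M 5XFAD CIH than in M 5XFAD NX, as 51.8% of all genes did, with a median log2FC of −1.42 against −0.01 over all genes, and none was called by edgeR, where 0% of 14334 genes were. At an unadjusted p below 0.05 there were 5 of the 10 against 3.3% of all genes: Ngp with a log2FC of −2.06 (SE 0.682), Camp with −2.08 (SE 0.714), Lcn2 with −1.90 (SE 0.734), Ltf with −1.72 (SE 0.691) and S100a8 with −1.49 (SE 0.666), each at an adjusted p of 0.995. DESeq2 and limma also called none. The difference followed 1 library: the 10 genes summed to 1440 CPM in M 5XFAD NX 2, to 80.3 to 388 CPM in the other 4 M 5XFAD NX libraries and to 64.4 to 236 CPM in the M 5XFAD CIH libraries, and without M 5XFAD NX 2 the median log2FC was −0.22. The interaction of genotype and treatment called none of the 10 in males (0% of 15813 genes were called, and all 10 had an unadjusted p above 0.05, while 24.4% of all genes had one below it), so the changes in WT and in 5XFAD males were not shown to differ. Without M 5XFAD NX 2 the interaction was positive for all 10 genes, with a median of 1.06 against −0.05 with all libraries. S100a9 (1.64, edgeR adjusted p = 0.13) and Retnlg (1.52, adjusted p = 0.151) had an unadjusted p below 0.05, as 27.5% of all genes did. None was called.

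**Figure D3:**
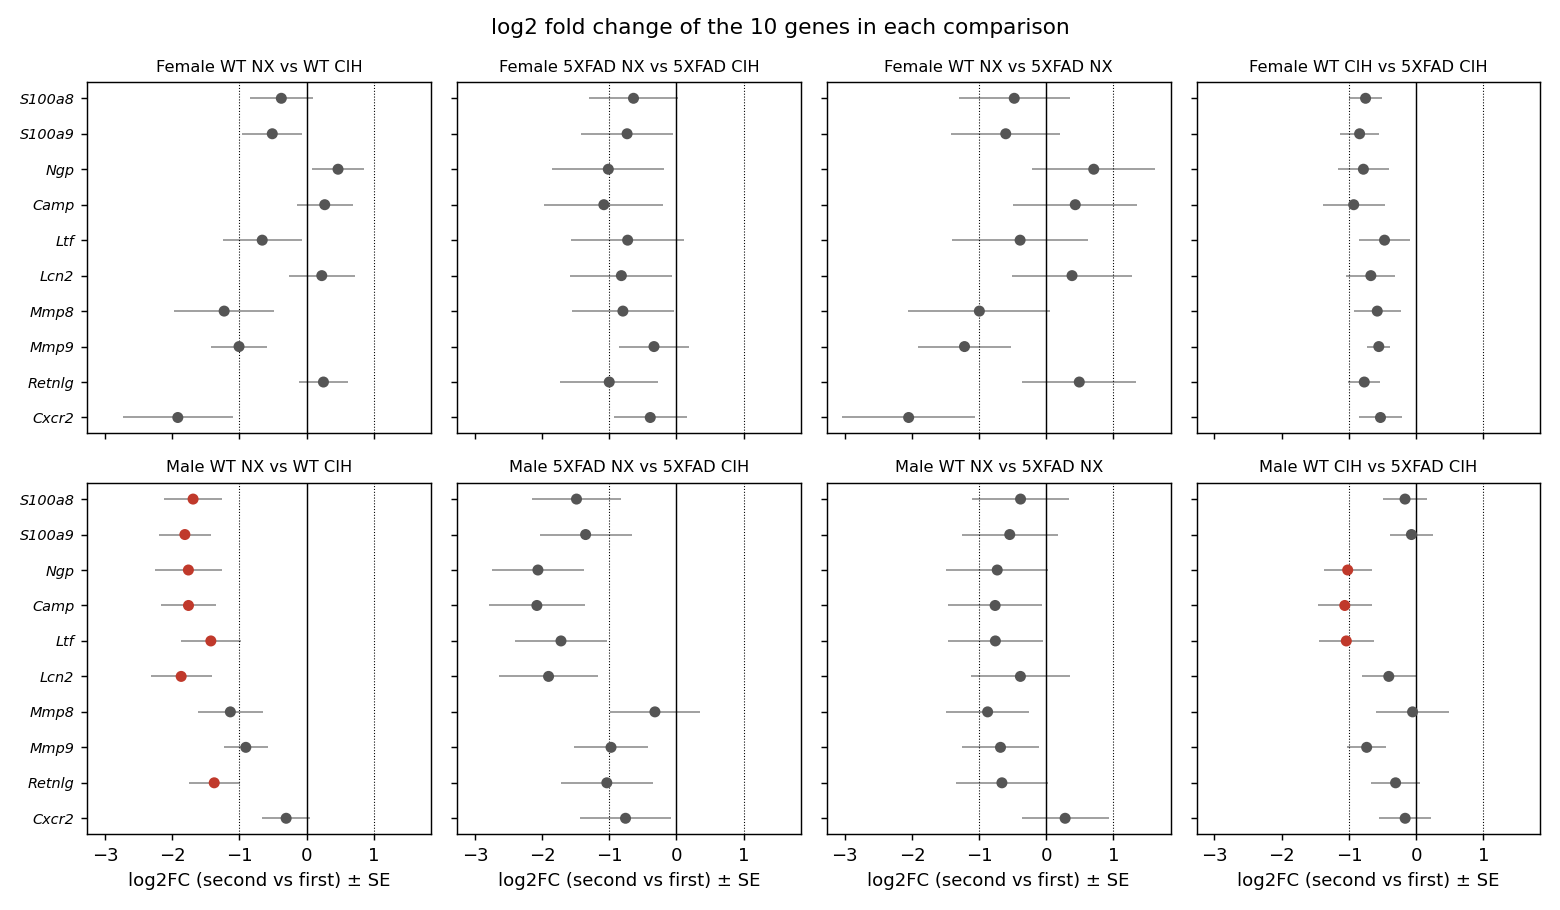
Log2FC ± SE (edgeR) of the 10 genes in each of the 8 pairwise comparisons, females above and males below, with the second group compared with the first. Red points are the genes that passed an FDR below 0.05 and an absolute log2FC above 1, which are 7 in M WT NX vs WT CIH and 3 in M WT CIH vs 5XFAD CIH, and dotted lines mark a log2FC of −1 and 1.

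Between genotypes, CIH-exposed males differed in 3 genes. Ngp, Camp and Ltf were lower in M 5XFAD CIH than in M WT CIH. Their log2FC were −1.02 (SE 0.358), −1.06 (SE 0.400) and −1.04 (SE 0.405), at edgeR adjusted p of 0.0292, 0.0398 and 0.0461. Lcn2 and Mmp8 were not called (edgeR adjusted p of 0.418 and 0.945). By the same rule 6.88% of the 14793 genes tested were lower, so 3 of 10 stood above a background that was itself large. For each of the 10 genes, the called ones included, the libraries of these groups overlapped. S100a8 and S100a9 had edgeR adjusted p of 0.698 and 0.873, and Mmp9 missed the threshold with a log2FC of −0.74 (SE 0.293, adjusted p = 0.0502). The 3 calls were close to both limits. None passed with all 4 male groups in 1 fit, which called 17.1% of all genes and where the adjusted p was 0.187 to 0.215, nor in limma on FPKM, and none passed when M WT CIH 4, M WT CIH 5 or M 5XFAD CIH 3 was left out. Scaling by library size alone, under which the median of all genes moved to −0.43 in this comparison, called Mmp9 as well as these 3, with 24.8% of all genes called. In normoxia, M WT NX and M 5XFAD NX did not differ by edgeR in any of the 10 genes (0 at an unadjusted p below 0.05, against 29.9% of 14834 genes, with 8.25% called), while without M 5XFAD NX 2 Ltf, Mmp9 and Retnlg were called lower in 5XFAD, with log2FC of −1.94, −1.58 and −1.83, where 7.29% of all genes were called.

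In females none of the 10 genes was called in any comparison. Between F WT CIH and F 5XFAD CIH all 10 had a lower fitted level in 5XFAD, as 51.6% of all genes did, with a median log2FC of −0.71 against −0.02 over all genes. The share of all 14911 genes called was 13%. An FDR below 0.05 was reached by 4 of the 10, at a log2FC short of −1, where 51.9% of all genes had such an FDR in either direction: S100a8 with −0.75 (SE 0.247, edgeR adjusted p = 0.0212), S100a9 with −0.84 (SE 0.296, adjusted p = 0.0293), Mmp9 with −0.56 (SE 0.172, adjusted p = 0.0155) and Retnlg with −0.77 (SE 0.239, adjusted p = 0.0157). None of the 4 kept an FDR below 0.05 with all 4 female groups in 1 fit, where the edgeR adjusted p was 0.274 to 0.371 and 12.6% of all genes were called. In that fit without F 5XFAD NX 4 their adjusted p was 0.0596 to 0.216, with 12.9% of all genes called. Without F 5XFAD CIH 2, the library with the highest values of its group in 8 genes, S100a8, S100a9, Ngp and Camp were called lower, with log2FC of −1.06 to −1.47, where 13.2% of all genes were called in either direction. The summed CPM of the 10 genes was 58.4 to 131 in F WT CIH and 26 to 91.5 in F 5XFAD CIH.

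**Figure D4:**
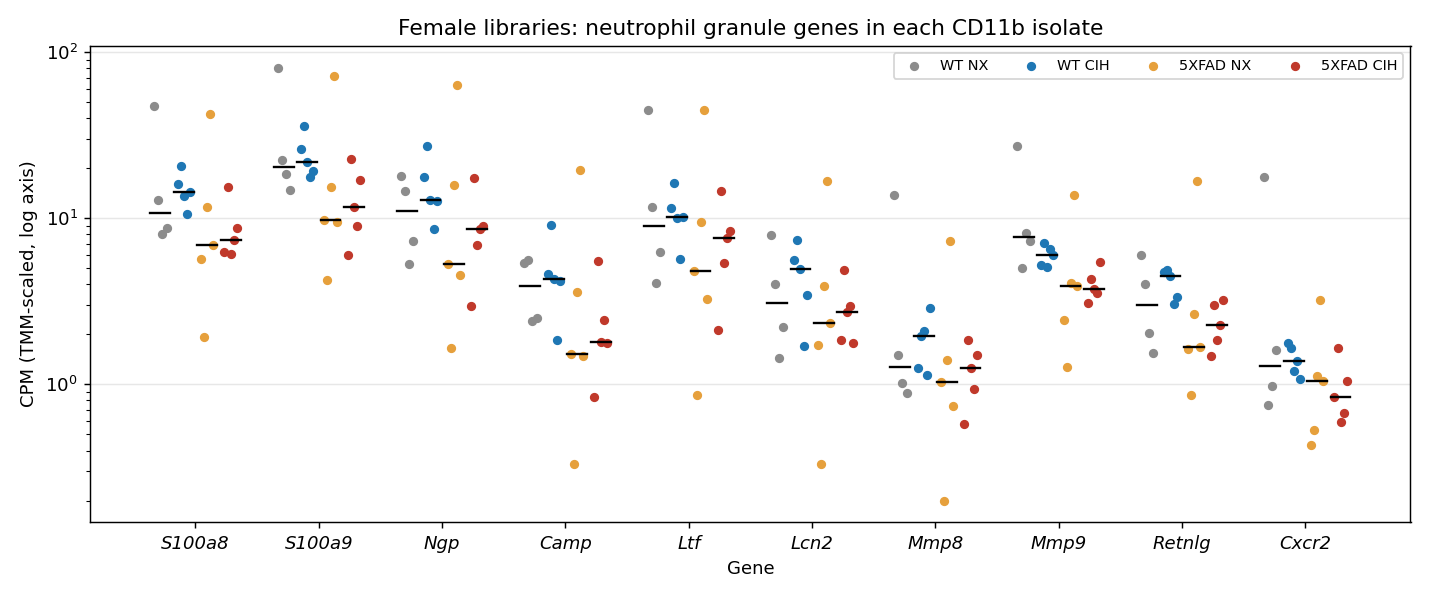
CPM (TMM-scaled, log axis) of the 10 genes in each of the 19 female libraries, with 1 point per library, colours for the 4 groups and a black bar at each group's median. The top grey point of most genes is F WT NX 1 and the top orange point is F 5XFAD NX 4, and for all 10 genes the F 5XFAD CIH median lies below the F WT CIH median.

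Comparisons that involved normoxic females rested on the libraries F WT NX 1 and F 5XFAD NX 4. Between F WT NX and F 5XFAD NX, 6 of the 10 genes had a lower fitted level in 5XFAD, against 52.2% of all genes, and the other 4 a higher one, and none had an unadjusted p below 0.05 (34.1% of 14513 genes did, and 5.99% were called). The median log2FC of the 10 genes was −0.43 with all libraries, −1.70 without F 5XFAD NX 4 and 0.72 without F WT NX 1. Without F 5XFAD NX 4, S100a9, Mmp9 and Cxcr2 were called lower in 5XFAD, with log2FC of −1.82, −2.05 and −2.78, and when both libraries were left out Mmp9 alone was called, with a log2FC of −1.24 (edgeR adjusted p = 0.0177). In these fits 13.3% and 14.8% of all genes were called, so 1 of 10 was no more than the background. With all 4 female groups in 1 fit only Cxcr2 of the 10 was called (8.79% of all genes), and in that fit without F 5XFAD NX 4 all but Ngp, Camp and Lcn2 were called lower, which is 7 of 10 against 13.8% of all genes.

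The effect of CIH in females was not resolved for any of the 10 genes. Between F WT NX and F WT CIH no gene of the 14583 tested was called, which is 0%, and 2 of the 10 genes had an unadjusted p below 0.05 against 3.87% of all genes: Mmp9 with a log2FC of −1.01 (SE 0.413, edgeR adjusted p = 0.96) and Cxcr2 with −1.92 (SE 0.815, adjusted p = 0.96). Without F WT NX 1 the log2FC of Cxcr2 was 0.35 and that of Mmp9 −0.18. The median log2FC of the 10 genes was −0.44 with all libraries and 0.58 without F WT NX 1. In the fit without it 2 of the 10 had an unadjusted p below 0.05, against 2.47% of all genes, and none was called. Between F 5XFAD NX and F 5XFAD CIH none of the 10 had an unadjusted p below 0.05 (3.22% of all genes did), 0% of 14578 genes were called, and the median log2FC of the 10 genes was −0.77 with all libraries. It was 0.48 without F 5XFAD NX 4, over the 9 genes that still passed the filter. DESeq2 and limma called none of the 10 in either comparison. The interaction called none of the 10 in females either (0% of 15582 genes were called), at an unadjusted p above 0.05 for all of them, while 3.78% of all genes had one below it. The median of the interaction over the 10 genes was −0.26 with all libraries, 0.89 without F 5XFAD NX 4, −1.40 without F WT NX 1 and −0.10 without both. Without F 5XFAD NX 4, Mmp9 (1.48) and Cxcr2 (2.24) had an unadjusted p below 0.05, as 4.8% of all genes did, each at an edgeR adjusted p of 0.962. Without F WT NX 1 or without both none of the 10 had one.

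The 10 genes varied between libraries of one group far more than most genes did, and they did so together. Their biological coefficient of variation was 0.530 to 0.820 in females, at the 92.0 to 98.0 percentile of 15582 genes whose median was 0.159. It was 0.360 to 0.685 without F 5XFAD NX 4, at the 88.8 to 98.2 percentile of 15274 genes with a median of 0.126. In males it was 0.519 to 0.684, at the 79.8 to 89.2 percentile of 15813 genes with a median of 0.239. The Pearson r between 2 of the genes, over the deviations of log2 CPM from the group means, had a median of 0.892 in males over 45 pairs and 20 libraries (0.583 for Camp and Cxcr2 to 0.988 for S100a8 and S100a9). In females the median was 0.895 over 19 libraries (0.517 to 0.979) and 0.806 over the 17 libraries left without F WT NX 1 and F 5XFAD NX 4 (0.191 to 0.978). Ngp and Camp were the closest pair in females at 0.979. Cxcr2 had the lowest r with each of Ngp and Camp in both sexes. All values of a library share its depth and scaling factor, and the coefficients are descriptive.

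**Figure D5:**
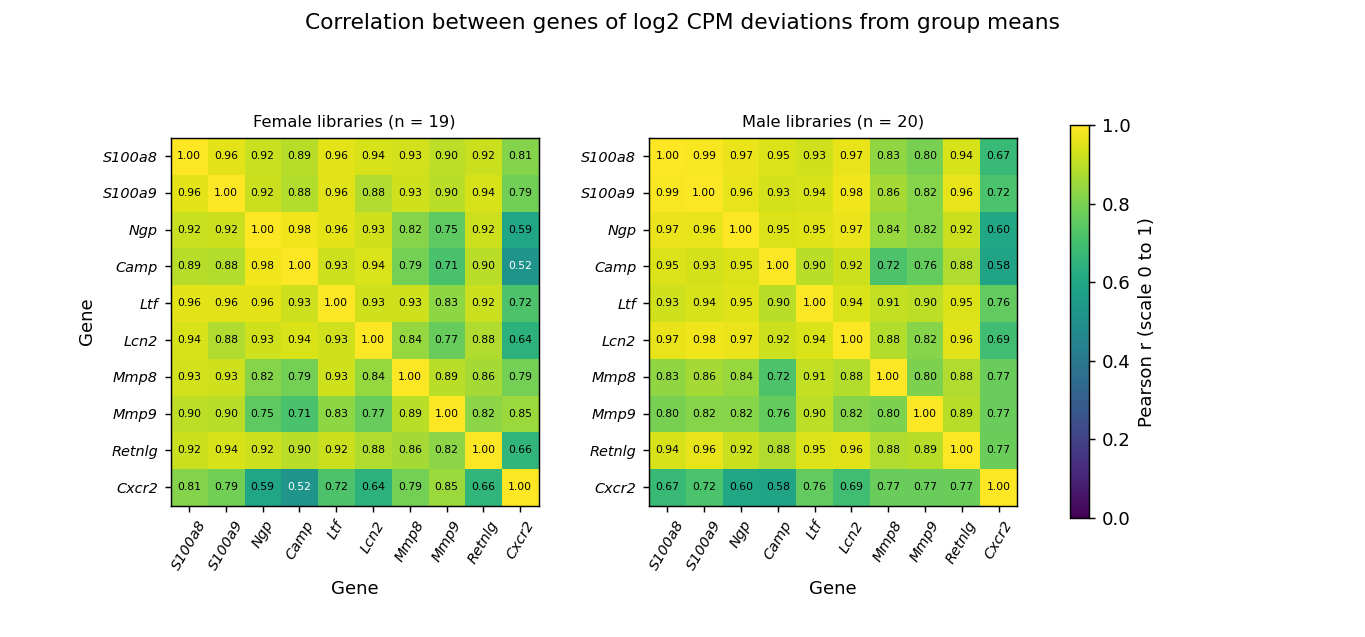
Pearson r between genes of log2 CPM deviations from group means, over 19 female libraries (left) and 20 male libraries (right), on a colour scale from 0 to 1. All pairs among S100a8, S100a9, Ngp, Camp, Ltf and Lcn2 have an r of at least 0.880, and the row of Cxcr2 holds the lowest values, down to 0.517 in females and 0.583 in males.

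Genes outside the 10 were ranked by the r of their own deviations with the mean deviation of the 10. In males, over 15803 genes, the leading gene was Chil3 (r = 0.950), which encodes a chitinase-like protein of neutrophils and other myeloid cells, followed by I830127L07Rik (0.946), Anxa1 (0.931), Pglyrp1 (0.906), Ifitm6 (0.902), Fpr2 (0.899), Pla2g7 (0.881), Cd24a (0.875), Ly6c2 (0.872) and Hp (0.865). In females, over 15572 genes, it was Mxd1 (r = 0.934), then Anxa1 (0.916), Chil3 (0.914), Cd177 (0.912), Pglyrp1 (0.911), Taf4 (0.871), Prim1 (0.869), Hdc (0.869), Pde4b (0.868) and Gda (0.868). Anxa1, Chil3 and Pglyrp1 were among the 10 in both sexes. Of a list of 42 other neutrophil genes, 22 of the 35 searched in males and 7 of the 21 searched in females were among the 100 genes most like the 10. Without F 5XFAD NX 4, over 18 female libraries, Anxa1 led with an r of 0.901. In that ranking 7 of the 10 leading genes were shared with the ranking over all female libraries, and 10 of the other neutrophil genes were among the leading 100.

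The same list of other neutrophil genes was followed through the comparison of M WT NX with M WT CIH. Of 32 genes tested, 12 fell, where 0.881% of all genes did, and none rose, 31 had a negative log2FC, and the median was −1.19. Of the 12, Cebpe and Trem3 had M WT CIH medians of 0.296 and 0.421 CPM. These genes passed the filter on low counts through the NX libraries, where they were higher, so the filter itself favoured a fall. None of the 12 was called with all 4 male groups in 1 fit, in which no gene of the table was called. In the pairwise fit 5 genes of the list were called without M WT NX 5 (1.95% of all genes). The 12 included the granule proteins Pglyrp1 (log2FC −1.72, SE 0.352), which binds bacterial peptidoglycan, and Hp (−1.41, SE 0.251), which encodes haptoglobin. They included Cebpe (−2.11, SE 0.613), the gene of C/EBP-epsilon, at 0.537 to 3.79 CPM in M WT NX and 0.172 to 1.05 CPM in M WT CIH. Inhibitors of enzymes were among them, the protease inhibitor gene Slpi (−1.98, SE 0.384), at 2.08 to 6.58 and 0.789 to 1.43 CPM, and the lipase inhibitor gene G0s2 (−2.07, SE 0.364), at 2.28 to 8.78 and 0.898 to 1.43 CPM, and for both of these, as for Hp, Ltb4r1 and Trem3, the groups did not overlap (9.12% of all genes were lower without overlap). The others were Anxa1, Cd177, Chil3, Fpr2, Ltb4r1, Trem3 and Wfdc21, with log2FC of −1.17 to −1.85. Csf3r, the receptor gene for granulocyte colony-stimulating factor, was the exception in level at 807 to 1363 CPM in males, is also expressed by microglia, and had a log2FC of 0.22 (SE 0.0944, edgeR adjusted p = 0.0904). Ly6g, the usual surface marker of mouse neutrophils, was at 0.0772 to 5.17 CPM in males and 0 to 1.22 CPM in females, and the primary granule genes Mpo, Elane, Prtn3 and Ctsg were at 0 counts in 2 to 10 of the 20 male and 3 to 12 of the 19 female libraries. Their highest male levels, 15.3, 9.33, 12.8 and 2.62 CPM, were all in M 5XFAD NX 2, and their highest female levels, 2.97, 1.66, 1.54 and 0.772 CPM, in F WT CIH 2.

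In the comparison of M WT CIH with M 5XFAD CIH, by contrast, 2 of 26 other neutrophil genes tested were called lower (Cd177 with −1.70, SE 0.378, and Ltb4r1 with −1.08, SE 0.373) and 1 higher (G0s2 with 1.29, SE 0.332), where 6.88% of all genes were lower and 11.8% higher, with a median of −0.0048. In that of F WT CIH with F 5XFAD CIH, 1 of 17 was called lower (Ltb4r1 with −1.67, SE 0.344), where 4.12% of all genes were, and 3 higher, where 8.83% were: Adam8 (1.04, SE 0.156), G0s2 (1.3, SE 0.264) and Olfm4 (1.24, SE 0.168). In the comparisons of CIH with normoxia in females and in 5XFAD males, and in normoxia between genotypes, none of the list was called. An unadjusted p below 0.05 was reached by 4 of 18 genes for CIH in F WT (3.87% of all genes), or 4 of 16 without F WT NX 1 (2.47%), 0 of 17 in F 5XFAD (3.22%) and 3 of 27 in M 5XFAD (3.3%). Summed without Csf3r, the list was highest among females in F WT NX 1, at 333 CPM against 122 CPM in the next library. For genotype in normoxia an unadjusted p below 0.05 was reached by 2 of 18 genes in females (34.1% of all genes) and 2 of 34 in males (29.9%). Without F WT NX 1, 2 of 15 were called for genotype in normoxic females (3.67% of all genes). Without F 5XFAD NX 4, 6 of 15 genes of the list were called for genotype in normoxic females (13.3% of all genes) and 7 had an unadjusted p below 0.05, as 52.2% of all genes did. None of 14 had one for CIH in F 5XFAD. Without M 5XFAD NX 2, 3 of 32 were called for genotype in normoxic males (7.29% of all genes) and 18 had an unadjusted p below 0.05, as 27.5% of all genes did. For CIH in M 5XFAD, 1 of 23 had one.

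Markers of other cell types also moved between M WT NX and M WT CIH. Of the 6 monocyte genes Ly6c2 and Plac8 were called lower, where 0.881% of all genes were, and the list summed to 107 to 152 CPM in NX and 60 to 115 CPM in CIH. The 5 erythroid genes, none of them called, all had a negative log2FC with a median of −0.82 and an unadjusted p below 0.05, as 39.8% of all genes had in either direction, at summed levels of 63.6 to 234 and 48.2 to 118 CPM. The 6 B cell genes summed to 646 to 869 and 438 to 566 CPM and the 5 platelet genes to 49.1 to 66.2 and 35.3 to 48 CPM, with none called. The 7 microglial genes summed to 29487 to 33666 and 26099 to 30869.8 CPM with a median log2FC of −0.16 and none called. None of the border macrophage (5 genes tested), endothelial (4), astrocyte (3), choroid plexus (4) or T and NK cell (2) genes was called. Of the 55 genes of these lists, none was at 0 counts in all 10 libraries and 11 were at 0 in at least 1 of them. These included Cd3d, Cd3e, Cd3g, Cd8a and Trbc2 of the T and NK cells in 2 to 6 libraries, Ppbp of the platelets in 6, and Ms4a1, Gfap, Vcan and Itga2b in 1 each. The part of blood or marrow cells left in the isolates in the fall of the 10 genes was not tested. Between M WT CIH and M 5XFAD CIH, 5 of 6 T and NK cell genes tested were called higher (Cd3e, Cd3g, Cd8a, Klrb1c and Nkg7), where 11.8% of all genes were, and the list summed to 2.58 to 6.26 CPM in WT and 10.6 to 21.3 CPM in 5XFAD. Also called higher were Ly6c2 of 6 monocyte genes, Igkc of 4 B cell genes tested, Gfap of 4 astrocyte genes and Flt1 of 4 endothelial genes. In these lists 2, 1, 2 and 3 genes in turn had a negative log2FC. Called lower, where 6.88% of all genes were, were the platelet gene Treml1, the border macrophage gene Mrc1, Pecam1 of the endothelium and the microglial genes P2ry12 and Sall1. The platelet genes summed to 35.3 to 48 CPM in WT and 14.7 to 30.3 CPM in 5XFAD, and the border macrophage genes to 113 to 246 and 72.7 to 142 CPM.

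Between F WT CIH and F 5XFAD CIH, where the 10 genes had lower fitted levels in 5XFAD, markers of several other cell types were also called lower (4.12% of all genes were). These were 4 of 5 border macrophage genes (Cbr2, Cd163, Lyve1 and Mrc1, median log2FC of the list −1.32), with sums of 112 to 229 CPM in WT and 49.8 to 93 CPM in 5XFAD, and 2 of 4 platelet genes tested (Gp9 and Treml1, median −0.74), with sums of 37.6 to 41.5 and 15 to 19.5 CPM. They also included 2 of 4 choroid plexus genes (Kl and Ttr, median −0.94), 2 of 6 monocyte genes (Ccr2 and F13a1, median −0.35), 2 of 7 microglial genes (P2ry12 and Tmem119, median −0.60) and Pecam1 of the endothelium. A positive log2FC was seen in 3 of the 6 monocyte genes and 1 of the 7 microglial genes. The choroid plexus genes summed to 188 to 1027 CPM in WT and 86 to 399 CPM in 5XFAD, the monocyte genes to 64 to 116 and 50.3 to 82.8 CPM, and the microglial genes to 26984.5 to 30766.4 and 21041.8 to 22830 CPM. Called higher, where 8.83% of all genes were, were Klrb1c of the T and NK cells, Aldoc and Gfap of the astrocytes and Flt1 of the endothelium. The 5 erythroid genes, with a median log2FC of −0.90, and the 4 B cell genes tested had no calls. In normoxia, with all libraries, F 5XFAD had 5 of 5 border macrophage genes, Ccr2, F13a1, Gp9, Pecam1 and Tmem119 called lower. Klrb1c, Flt1 and Gfap were called higher (5.99% of all genes were called). M 5XFAD had 4 of 5 border macrophage genes, Hba-a1, Hbb-bs, Gp9, Treml1, F13a1, Cd79b, Pecam1, P2ry12 and Tmem119 called lower. Klrb1c, Flt1, Aldoc and Gfap were called higher (8.25% of all genes were called). The part of all these cells in the levels of the 10 genes was not tested.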

How the data were processed

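RNA from CD11b-selected cerebral cells was sequenced by a service provider as paired-end mRNA libraries. The labels' processing notes name GRCm38/mm10 and HISAT2, while the counting program is not given in the sources used here. The authors deposited whole-number counts per gene for each sex, without normalization, and FPKM, which are those counts scaled by gene length and library total. The differential expression was computed from the counts with edgeR 4.0.16 (R 4.3.3): TMM scaling, a filter that kept genes with a CPM above 1 in 3 or more of the libraries being compared, the quasi-likelihood F test for each pair of groups, Benjamini-Hochberg adjustment over all genes tested, and calls at an FDR below 0.05 with an absolute log2FC above 1. A positive log2FC is higher in the group named second. The interaction of genotype and treatment was fitted over the 4 groups of a sex. The fits were tested on simulated counts. Groups and replicate numbers came from the sample titles, and no 2 libraries of a group agreed within sampling noise.

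CPM shown are counts divided by the TMM-scaled library size. Total counts were 14731683 to 25906121 in females and 13457293 to 23095627 in males, and a CPM of 1 was 15 counts in the smallest female and 13 counts in the smallest male library. Alternatives were library size alone, DESeq2 1.42.0, edgeR's likelihood ratio test, no filter, at least 10 counts in every sample, FDR alone, an FDR below 0.01, all 4 groups in 1 fit, a replicate block, limma 3.58.1 on log2(FPKM + 1) and log2(FPKM + 0.1), and each library left out. The 10 genes, the list of 42 other neutrophil genes and the marker lists of microglia, monocytes, T and NK cells, B cells, erythroid cells, platelets, border macrophages, endothelium, astrocytes and choroid plexus were chosen with earlier results of these data known. A log2FC is given for one of the 10 genes where its unadjusted p was below 0.05 in the pairwise fit, or in the interaction with a library left out, or where leaving out a library made a call (the last 2 were chosen after the values were seen), and genes of the list of 42 are named where they were called or most abundant. Genes outside the lists are the 10 with the highest r, except Cst7, which was named for the check of the labels after its values were seen. Ly6g, Mpo, Elane, Prtn3, Ctsg and the called genes of the marker lists were also named after their values were seen. The spread, the similarity ranking and the counts of the list of 42 with single libraries left out, and the fit of 4 female groups without F 5XFAD NX 4, were added after seeing the data. Promoter sequences were from RefSeq (GRCm38.p6), and gene positions from the male table.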

Additional observations from a re-analysis of the deposited data

Results flagged for a closer look

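A library was singled out where its distance from the nearest other library of its group, as a share of the whole range of the group, exceeded Dixon's 95% critical value. Of 80 checks of the 10 genes in the 8 groups, 25 met this. A chance rate of about 1 in 20 holds for normally distributed values. The checks used CPM without logarithms and share libraries between genes, so the 25 cannot be set against that rate. The cause was not tested in any case.

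The library labelled F 5XFAD NX 4 was the highest of its group in all 10 genes: S100a8 at 42.2 CPM against 11.8 CPM in the next library, S100a9 at 71.6 against 15.4 CPM, Ngp at 63.6 against 15.9 CPM, Camp at 19.4 against 3.59 CPM and Ltf at 44.6 against 9.43 CPM. In the same library Lcn2 was at 16.8 against 3.92 CPM, Mmp8 at 7.33 against 1.4 CPM, Mmp9 at 13.7 against 4.05 CPM, Retnlg at 16.8 against 2.66 CPM and Cxcr2 at 3.2 against 1.13 CPM. This is the library whose Cst7 level lay in the range of the WT females.

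The library F WT NX 1 was set apart in 5 genes, S100a8 at 47.5 CPM against 12.8 CPM in the next library of its group, S100a9 at 80.6 against 22.3 CPM, Mmp8 at 13.8 against 1.51 CPM, Mmp9 at 27.2 against 8.2 CPM and Cxcr2 at 17.8 against 1.61 CPM. Ngp, Camp, Ltf, Lcn2 and Retnlg were not set apart in it.

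The library M 5XFAD NX 2 was set apart in 8 genes. S100a8 was at 350.2 CPM against 89.9 CPM in the next library, S100a9 at 427 against 115 CPM, Ngp at 250.2 against 68.7 CPM and Ltf at 116 against 33.1 CPM. Lcn2 was at 119 against 26.7 CPM, Mmp8 at 13 against 4.03 CPM, Mmp9 at 35.4 against 9.29 CPM and Retnlg at 59.2 against 15.4 CPM. Its Cst7 level of 2962 CPM was within the range of the other M 5XFAD libraries.

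S100a8 was also set apart in F 5XFAD CIH 2, at 15.5 CPM against 8.67 CPM in the next library, and at the low end in M 5XFAD CIH 3, at 16.3 CPM against 41.1 CPM in the nearest one.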

How the results depend on the processing

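For M WT NX vs WT CIH, 7 of the 10 genes were called, 4 at an FDR below 0.01 and 0 with all 4 groups in one fit (0% of all genes), and 4 to 8 when 1 library was left out (4 without M WT NX 5, 6 without M WT NX 3, 8 without M WT CIH 4). For M WT CIH vs 5XFAD CIH, 3 were called, 0 with all 4 groups in one fit (17.1% of all genes), 0 at an FDR below 0.01, 0 in limma with either pseudocount (10.6% and 18.3% of all genes), and 0 to 3 with 1 library left out. For F WT CIH vs 5XFAD CIH the main count was 0, with 1 under library size alone (S100a9; 13.5% of all genes, whose median moved from −0.02 to −0.21), 1 in limma on log2(FPKM + 1) (S100a9; 6.84%), 4 on log2(FPKM + 0.1) (12%), 4 at an FDR below 0.05 with no limit on log2FC (51.9%), and 0 to 4 with 1 library left out. For F WT NX vs 5XFAD NX it was 0, with 1 with all 4 groups in one fit (Cxcr2; 8.79% of all genes), 1 with F WT NX 1 and F 5XFAD NX 4 both left out (Mmp9; 14.8%; chosen after seeing the data), and 0 to 3 with 1 library left out. M WT NX vs 5XFAD NX gave 0 to 3 with 1 library left out, and the other comparisons and both interactions gave 0 under every alternative. The cause of these shifts was not tested.

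The replicate number does not pair the samples: the correlation of deviations of same-numbered libraries was −0.27 to 0.35 in females and −0.49 to 0.25 in males. With it as a replicate block, 1 gene was called in M WT CIH vs 5XFAD CIH and 1 in F WT CIH vs 5XFAD CIH (Camp in both; 18.8% and 13.2% of all genes).

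Of the log2FC of single genes under the alternatives, 186 of the results kept direction and side of the threshold, 6 passed it and 23 lost it. With 1 library left out, 208 kept both, 7 passed, 22 lost it and 1 reversed, Cxcr2 in F WT NX vs WT CIH, at 0.35 without F WT NX 1 (lowest −2.28 without F WT NX 2) against −1.92.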
